A study of Mus musculus with 6 samples.

Results

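The genes described here are 38 genes of G2 and mitosis, from the regulators that start division to the proteins that cut the daughter cells apart, together with Mki67, which encodes the proliferation antigen Ki-67. They were taken by symbol from a list of names, and all 38 were found among the 57010 genes of the count table. The table holds 6 libraries of RNA from cells sorted from mouse hearts as CD45-positive and CD90.2-negative, that is, as immune cells with T cells left out. All mice carried the genotype given as Ova DTG, in which ovalbumin is expressed in the heart only, and all had received naive OTI cells, CD8 T cells whose receptor recognises ovalbumin. The 3 libraries labelled ICI came from mice given antibodies to CTLA-4 (clone 9D9) and to PD-1 (clone RPM1-14), 200 µg of each, which together remove brakes on T cells, and the 3 labelled isotype came from mice given control antibody. All libraries share 1 batch label and are labelled as biological replicates, with the transgene's promoter, the animals' age and sex, the day of collection and any pooling of hearts not given in the sources used here. Both groups' titles name myocarditis. The question put to the data is how the checkpoint antibodies changed these cells, which here is the comparison of both groups.

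A cell enters mitosis when the kinase CDK1, bound to a B-type cyclin, is switched on. The spindle then captures each chromosome at its kinetochore, the spindle checkpoint holds the cell until all are attached, and the anaphase-promoting complex next destroys cyclin B and securin so that the sisters part. Most of these genes are transcribed mainly in G2 and M, and little in resting cells. In the heart, resident macrophages can renew themselves by local division, whereas monocytes arrive from the blood and some of their descendants divide after entry.

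Total counts ran from 21528274 to 30736316 per library and were lower in every library labelled ICI (p = 0.1 in an exact two-sided permutation test, the lowest value possible for groups of 3). The 38 genes held between 0.0843% and 0.154% of a library's counts, and no member had fewer than 50 counts in any library, so all 38 entered the test. Levels are in CPM, counts scaled to a common library total, and are not corrected for gene length unless stated. Fold changes come from the edgeR fit, which also scales libraries by TMM factors (1.05 to 1.11 for ICI, 0.921 to 0.952 for isotype). They are therefore not ratios of the CPM: falls come out larger and rises smaller than the CPM alone give. The leukocyte gene Ptprc, which encodes CD45, was at 1300.4 ± 106.6 CPM in the libraries labelled ICI and 1012.3 ± 58.8 CPM in those labelled isotype (SD, n = 3 each, here and below). In the edgeR test described below Ptprc was not called (log2 fold change of 0.16, edgeR adjusted p = 0.164). Thy1, which encodes CD90, had at most 2 counts in a library. The labelled gate was therefore matched by its defining genes.

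Most mitosis genes were lower in the libraries labelled ICI. Genes count as called when the adjusted p is under 0.05 in the quasi-likelihood test of edgeR, adjusted by the Benjamini-Hochberg method over all 14575 genes tested. By this test 29 of the 38 members (76.3%) were lower in the libraries labelled ICI, 2 were higher and 7 were not called. Over all genes tested, 33.9% were called lower and 35.0% higher, 68.9% in all. CPM did not overlap between the groups for 73.5% of all genes tested and for 27 of the 38 members. Lack of overlap in single genes below is to be read beside that share. The median log2 fold change was -0.85 for the members, a 1.81-fold fall, and 0.03 for all genes tested. With upper-quartile factors or library totals alone as the scaling, 27 members were lower and 2 higher, and the members' median was -0.67 and -0.65 while that of all genes moved to 0.21 and 0.23. Against a 1.5-fold change, 20 members were lower and 1 was higher. The calls lost there were those of Incenp, Bub3, Top2a, Ndc80, Spc25, Cenpe, Kif11, Tpx2, Hmmr and Pttg1, with edgeR adjusted p from 0.0907 for Tpx2 to 0.806 for Incenp. In bulk RNA, fewer dividing cells and less of these transcripts per dividing cell cannot be told apart.

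**Figure D1:**
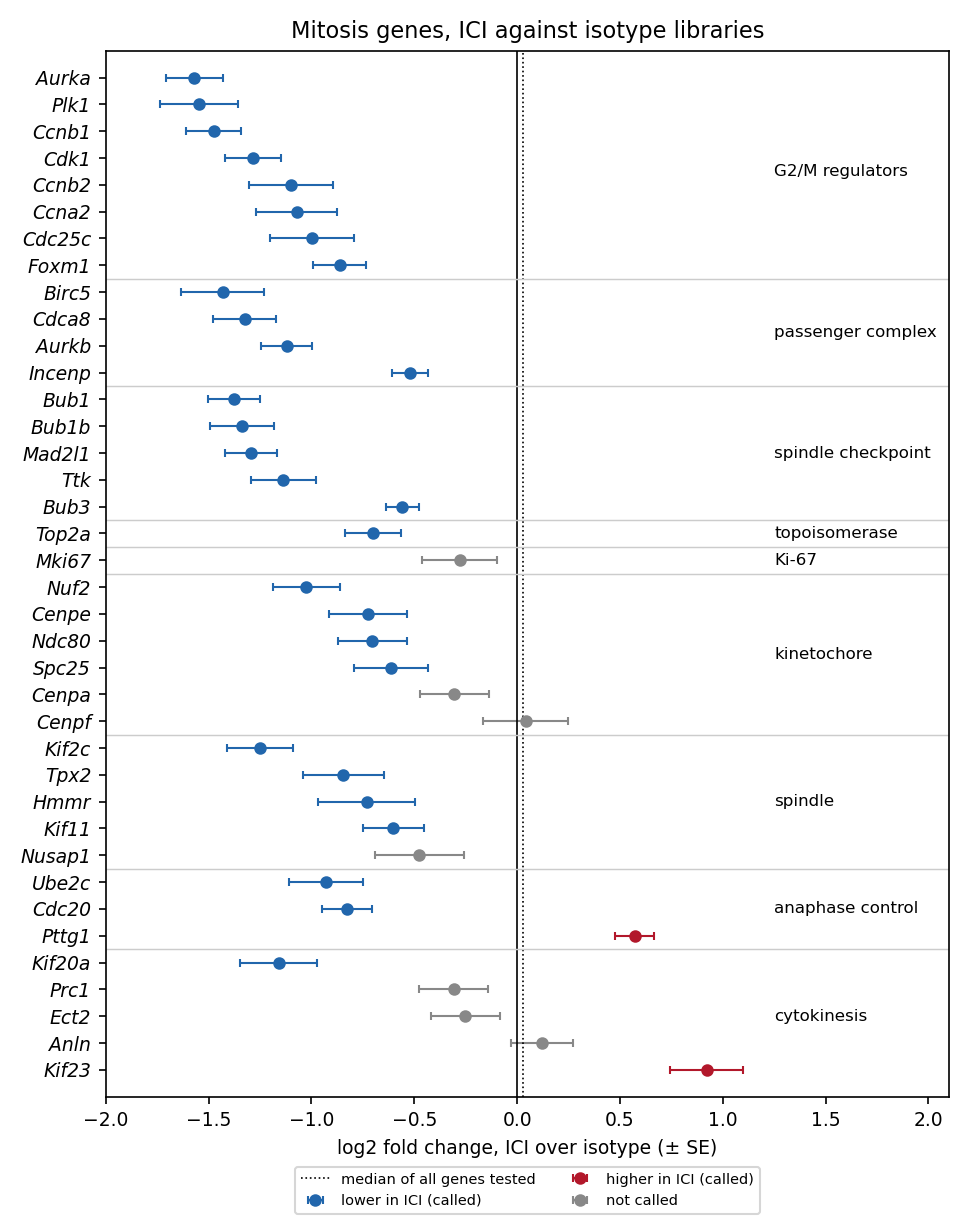
Log2 fold change of each of the 38 genes, ICI over isotype, with its standard error, by role, with 3 libraries in each group. The 29 blue points lie left of 0, the 2 red points (Pttg1 and Kif23) right of it, and the 7 grey points were not called.

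All 8 regulators of G2 and mitotic entry fell, with a median log2 fold change of -1.19, where 33.9% of all genes tested were called lower. Aurka (ENSMUSG00000027496), the kinase that matures centrosomes and helps to switch on CDK1, was at 8.55, 12.3 and 11.8 CPM in ICI replicates 1, 2 and 3 and at 29.3, 25.5 and 29.3 CPM in the isotype replicates. Every isotype library was above every ICI library, and the log2 fold change was -1.57 (SE 0.14, edgeR adjusted p = 6.39e-06). Ccnb1, cyclin B1, was at 18.5, 27.0 and 22.0 CPM against 54.1, 49.7 and 59.4 CPM, a 2.78-fold fall (edgeR adjusted p = 8.17e-06). Its partner Cdk1 was at 13.1, 18.4 and 14.2 CPM against 34.1, 31.0 and 31.7 CPM. The groups did not overlap for either gene, and Cdk1 fell 2.44-fold (edgeR adjusted p = 2e-05). Foxm1, the transcription factor of many G2 and M genes, was at 20.2, 27.8 and 20.8 CPM against 36.5, 35.4 and 37.1 CPM, a smaller fall of 1.82-fold (edgeR adjusted p = 0.00022). The other 4 were the polo-like kinase Plk1, the cyclins Ccna2 and Ccnb2 and the CDK1-activating phosphatase Cdc25c, which fell 2.92-fold, 2.1-fold, 2.14-fold and 2.00-fold.

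The 4 subunits of the chromosomal passenger complex, which corrects faulty spindle attachments, all fell, but not equally. Of all genes tested, 33.9% were called lower. The kinase subunit Aurkb was at 20.9, 28.7 and 23.0 CPM against 45.5, 42.0 and 49.8 CPM (log2 fold change of -1.12 with SE 0.13 and edgeR adjusted p = 3.09e-05). Cdca8, borealin, was at 13.6, 19.8 and 14.8 CPM against 34.2, 31.0 and 39.9 CPM, and Birc5, survivin, at 12.9, 18.3 and 13.2 CPM against 36.5, 25.9 and 41.9 CPM. Both were lower in every ICI library than in any isotype library, by 2.5-fold and 2.7-fold. The scaffold Incenp fell by less, 1.43-fold by the edgeR fit (edgeR adjusted p = 0.000475), with group means of 50.9 CPM against 63.5 CPM.

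The 5 genes of the spindle checkpoint fell as well, with a median log2 fold change of -1.29, beside 33.9% of all genes called lower. Bub1, a kinetochore kinase, was at 8.51, 8.73 and 10.3 CPM against 23.1, 18.3 and 20.5 CPM (log2 fold change of -1.38 with SE 0.13 and edgeR adjusted p = 9.05e-06). Mad2l1, whose product MAD2 binds and restrains CDC20, was at 13.7, 17.7 and 14.0 CPM against 32.9, 29.2 and 34.9 CPM. Bub1b, which encodes the checkpoint protein BUBR1, was at 28.3, 43.3 and 32.2 CPM against 77.0, 67 and 84.4 CPM. Neither overlapped between the groups, and they fell 2.45-fold and 2.53-fold. The checkpoint kinase Ttk fell 2.20-fold. Bub3, the partner of BUB1 and BUBR1 at kinetochores, was the most abundant of the 5 at 86.1 ± 3.38 CPM against 110.2 ± 1.39 CPM and fell 1.47-fold (edgeR adjusted p = 0.000141).

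Among the 6 centromere and kinetochore genes, 4 fell and 2 were not called, where 33.9% of all genes tested were called lower and 68.9% called in either direction. Nuf2, a subunit of the NDC80 complex that holds microtubules, was at 7.37, 11.9 and 9.48 CPM against 17.3, 16.5 and 17.1 CPM, a 2.03-fold fall (edgeR adjusted p = 0.000306). Its partner Ndc80 was at 12.1, 18.7 and 12.9 CPM against 20, 18.9 and 23.2 CPM. ICI replicate 2 lay just under the lowest isotype library, and the fall was 1.63-fold (edgeR adjusted p = 0.00424). Spc25, of the same complex, fell 1.53-fold (edgeR adjusted p = 0.0127), and its call was lost with upper-quartile factors (edgeR adjusted p = 0.059), library totals (0.0787), the length trend removed (0.127), against a 1.5-fold change (0.403) and without replicate 3 of both groups (0.069), in a range of 0.00243 to 0.403 over all settings. Its direct partner Spc24, outside the 38 and named after its value was seen, fell 2.88-fold. The kinesin Cenpe, which moves chromosomes to the spindle equator, was at 15.2, 20.2 and 14.6 CPM against 23.6, 18.6 and 29.9 CPM, so ICI replicate 2 lay above isotype replicate 2 (1.65-fold fall, edgeR adjusted p = 0.00774). Cenpa, the histone that marks centromeres, was at 30.8, 34.1 and 41.6 CPM against 37.4, 29.1 and 47.7 CPM and Cenpf, a large kinetochore protein, at 10.2, 12.4 and 11.5 CPM against 7.95, 7.50 and 13.3 CPM. The groups overlapped for both, and the edgeR adjusted p values were 0.137 and 0.866. Without isotype replicate 2, Cenpa was called lower (edgeR adjusted p = 0.0165, range over all settings 0.0165 to 1).

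Of the 5 spindle genes, 4 fell, beside the 33.9% of all genes tested that were called lower. Kif2c, a kinesin that shortens microtubules at centromeres, was at 7.85, 9.19 and 8.04 CPM against 16.6, 14.0 and 21.2 CPM (log2 fold change of -1.25 with SE 0.16 and edgeR adjusted p = 7.41e-05). The pole-separating motor Kif11 was at 24.2, 34.2 and 26.4 CPM against 35.2, 32.8 and 43.9 CPM, with overlap between ICI replicate 2 and isotype replicate 2, and fell 1.52-fold (edgeR adjusted p = 0.00522). Tpx2, which activates Aurora A on the spindle, was at 23.3, 28.1 and 19.1 CPM against 33.3, 30.1 and 47.1 CPM and fell 1.79-fold (edgeR adjusted p = 0.00527). Hmmr, a spindle assembly factor, fell 1.66-fold, with the largest edgeR adjusted p of the called members (0.0224). Its call was lost without ICI replicate 1 (edgeR adjusted p = 0.0774), ICI replicate 3 (0.0681) or isotype replicate 3 (0.0614), without replicate 3 of both groups (0.128) under both other scalings named above (0.0692 and 0.0782) and against a 1.5-fold change (0.24), in a range of 0.00152 to 0.24 over all settings. Nusap1, a microtubule bundler, was at 12, 17.3 and 13.1 CPM against 16.6, 12.4 and 22.3 CPM and was not called (edgeR adjusted p = 0.0822). It was called lower without ICI replicate 2 (edgeR adjusted p = 0.0309) or isotype replicate 2 (0.0151), in a range of 0.0151 to 0.711 over all settings.

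The genes that act at anaphase went both ways, beside 33.9% lower and 35.0% higher of all genes tested. Cdc20, the activator of the anaphase-promoting complex, was at 17, 19.6 and 16.3 CPM against 27.5, 23.6 and 30.5 CPM, and Ube2c, the complex's ubiquitin-conjugating enzyme, at 11.4, 18.4 and 13.1 CPM against 24.0, 20.1 and 26.9 CPM. Both were lower in every ICI library, by 1.77-fold and 1.90-fold (edgeR adjusted p = 0.000209 and 0.00146). Pttg1 (ENSMUSG00000020415), securin, which restrains separase until anaphase, was instead at 33.6, 31.5 and 33.3 CPM in the libraries labelled ICI against 20.1, 17.7 and 19.7 CPM. All ICI libraries were above all isotype libraries, and the log2 fold change was 0.57 (SE 0.10, edgeR adjusted p = 0.00042). The rise of Pttg1 was called in each of the other settings except against a 1.5-fold change (edgeR adjusted p = 0.523, range 6.38e-06 to 0.523).

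Cytokinesis genes showed the widest split, with 1 lower, 1 higher and 3 not called, beside 33.9% lower and 35.0% higher of all genes tested. Kif20a, a kinesin that carries the passenger complex to the midzone, was at 19.0, 28.8 and 20.2 CPM against 40.7, 37.6 and 54.0 CPM, a 2.23-fold fall (edgeR adjusted p = 0.000747). Kif23 (ENSMUSG00000032254), the kinesin of the centralspindlin complex that organises the midzone, was at 51.9, 72.2 and 77.2 CPM against 28.0, 25.6 and 38.7 CPM. Every ICI library exceeded every isotype library, and the log2 fold change was 0.92 (SE 0.18, edgeR adjusted p = 0.00197). Kif23 was called higher in all 18 other settings, with log2 fold changes from 0.81 to 1.13. Racgap1, the other subunit of centralspindlin and named after its value was seen, went the other way, at 50.2 ± 1.84 CPM against 65.5 ± 6.83 CPM, and fell 1.5-fold (edgeR adjusted p = 0.000276). The ratio of Kif23 to Racgap1 counts was 1.34 ± 0.255 in the libraries labelled ICI and 0.465 ± 0.0554 in those labelled isotype. Both genes separated the groups in opposite directions, so their ratio had to do so too and is given as a description only.

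The remaining cytokinesis genes did not separate the groups. Prc1, which bundles midzone microtubules, was at 26.2, 41.4 and 30.2 CPM against 35.6, 30.5 and 39.3 CPM. Anln, anillin of the contractile ring, was at 23.2, 33.9 and 26.4 CPM against 20.4, 20.4 and 25.9 CPM, and Ect2, the exchange factor that activates RhoA there, at 15.1, 24.1 and 17.6 CPM against 20.2, 17.4 and 21.2 CPM. ICI replicate 2 was the highest of all 6 libraries for each of these 3 genes, and their edgeR adjusted p values were 0.133, 0.488 and 0.205. Without that library Prc1 and Ect2 were called lower (edgeR adjusted p = 0.00406 and 0.00911, upper end of both ranges 1), and Anln was not (0.748).

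Mki67, the gene most often used to score dividing cells, did not follow the majority. It was at 65.2, 91.2 and 64.7 CPM in the libraries labelled ICI and at 73.1, 64.8 and 96.0 CPM in those labelled isotype, with the groups overlapping over most of their range (log2 fold change of -0.28 with SE 0.18 and edgeR adjusted p = 0.203). Top2a, the topoisomerase that untangles sister chromatids, was at 64.2, 88.6 and 69.3 CPM against 102.6, 91.5 and 120.1 CPM, a 1.62-fold fall without overlap (edgeR adjusted p = 0.00145). Mki67 was called lower without ICI replicate 2 (edgeR adjusted p = 0.0238) and after the trend of fold change with transcript length was removed (0.0128), in a range of 0.0128 to 1 over all settings.

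**Figure D2:**
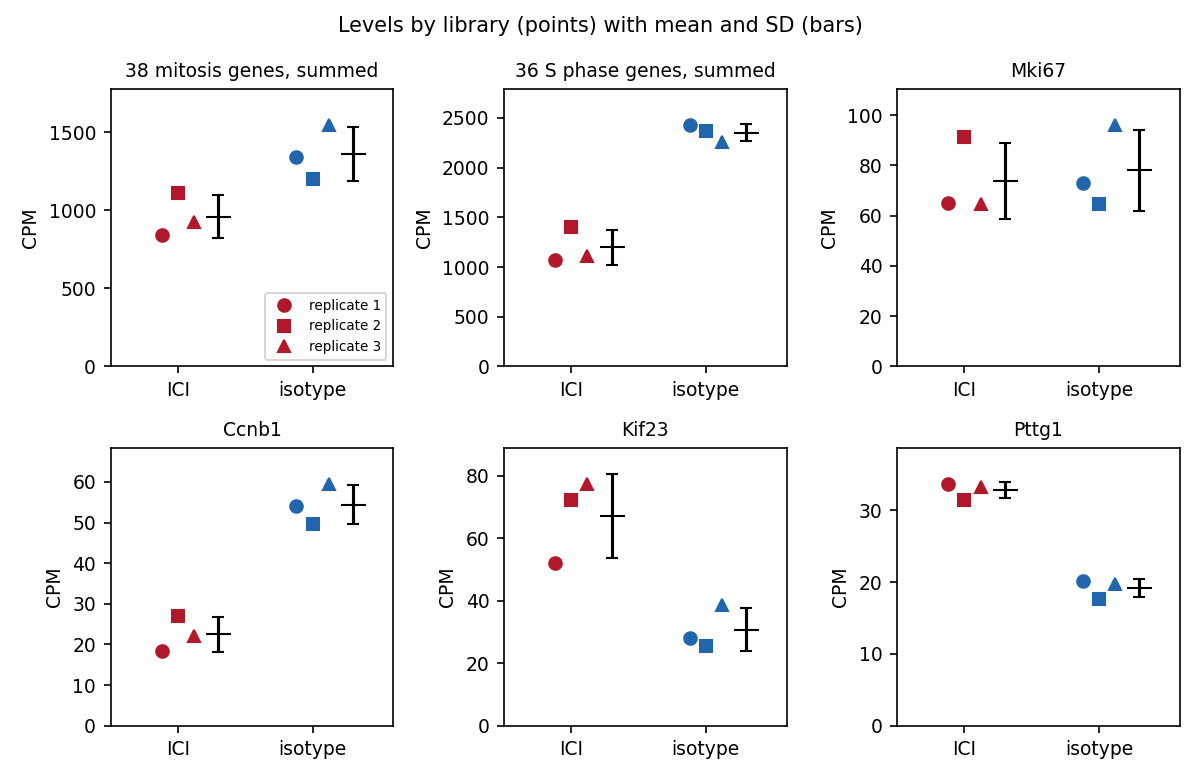
CPM in each library (points, shaped by replicate number) with mean and SD (bars) for the summed 38 mitosis genes, 36 summed S phase genes, Mki67, Ccnb1, Kif23 and Pttg1. Both sums and Ccnb1 lie lower in all ICI libraries, Kif23 and Pttg1 higher, and the Mki67 groups overlap.

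Replicates of a group differed from each other in the same way for most members. ICI replicate 2 was the highest of its group for 32 of the 38 genes, as for 30.8% of all genes tested. Isotype replicate 3 was the highest of its group for 32 members too, as for 42.8% of all genes tested, and 29 members were highest in both libraries. The summed level of the 38 genes was 843.2, 1112.7 and 923.3 CPM in ICI replicates 1, 2 and 3 and 1338.5, 1201.5 and 1544.8 CPM in the isotype replicates, so the sums did not overlap. CPM did not overlap between the groups for 27 members, 25 of them lower and 2 higher in the libraries labelled ICI, where 73.5% of all genes tested did not overlap. Without ICI replicate 2 the count of lower members rose to 33, and without the other libraries in turn it was 28 to 31. Replicate 3 of each group also carried Xist, a transcript of female cells, at 2786 and 1844 counts against at most 12 elsewhere. Without both of these libraries 27 members were lower and 2 higher.

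**Figure D3:**
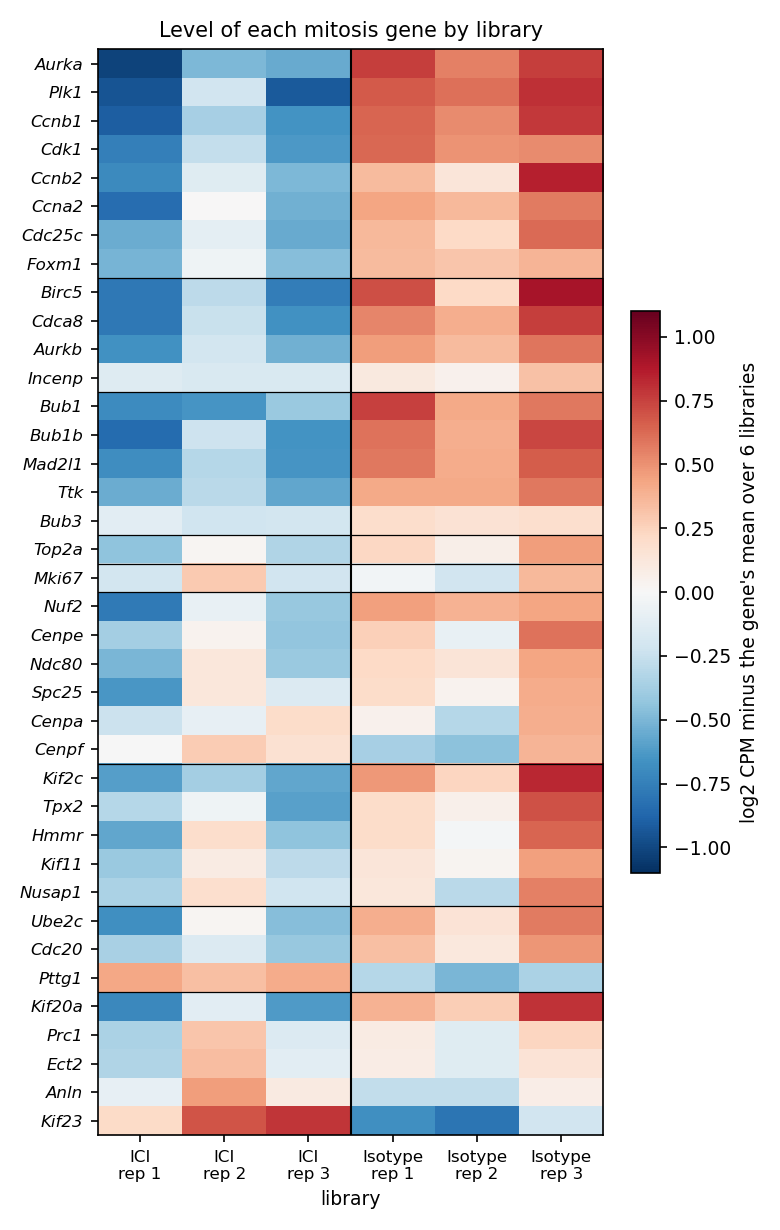
Log2 CPM of each gene minus its mean over the 6 libraries, by role (rows) and library (columns), on a scale from blue (below the mean) to red (above). Most rows turn from blue in the libraries labelled ICI to red in those labelled isotype, Pttg1 and Kif23 turn the other way, and ICI replicate 2 is less blue than the other ICI libraries in most rows.

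Per length of transcript, the order of the genes changed between the groups. In the libraries labelled isotype the highest mean levels per kilobase were those of Bub3 (32.3 CPM per kilobase), Ccnb2 (26.2), Cenpa (26) and Aurkb (23.5), and the lowest that of Cenpf (0.862). In the libraries labelled ICI the order began with Bub3 (25.2 CPM per kilobase), Cenpa (24.2), Kif23 (19.7) and Pttg1 (19.6). Kif23 thus moved from rank 21 to rank 3 of 38, and Pttg1 from rank 16 to rank 4. Kif23 made up 6.99% of the summed CPM of the 38 genes in the libraries labelled ICI and 2.25% in those labelled isotype.

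Other genes of division and of the steps before it were mostly lower too. Of 58 further kinetochore and spindle genes, 35 were called lower and 0 higher by edgeR, with a median log2 fold change of -0.63. Among them, the CDK-binding Cks1b fell 3.24-fold, the spindle protein Tacc3 2.39-fold, the centromere protein gene Cenpw 3.76-fold and Cdca3, a trigger of mitotic entry, 3.01-fold. Under upper-quartile factors 30 of the 58 were lower and 3 higher, and under library totals 30 and 4. Against a 1.5-fold change 15 were lower and 0 higher. Of 17 genes of the anaphase-promoting complex and its partners 10 were lower and 0 higher, where 33.9% of all genes were lower and 35.0% higher, with Anapc11 at 1.85-fold, Anapc5 at 1.84-fold, Anapc15 at 1.68-fold and the inhibitor Fbxo5 at 1.80-fold lower. The count of that list depended on the scaling, with 6 lower and 2 higher under upper-quartile factors and 5 lower and 2 higher under library totals. Of 17 cyclins, kinases and E2F and retinoblastoma family genes of the G1/S step, 12 were lower and 4 higher. Ccne1, cyclin E1, had the largest fall among them, 8.44-fold by the edgeR fit (edgeR adjusted p = 1.91e-07), at 4.86 ± 1.07 CPM against 35.8 ± 1.54 CPM. E2f8, E2f3 and E2f2 fell 3.18-fold, 2.36-fold and 2.32-fold.

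S phase genes, the set nearest to the mitosis genes, fell more evenly, where 33.9% of all genes tested were called lower. Of 36 genes of DNA replication and nucleotide synthesis, 35 were lower and 0 higher, with a median log2 fold change of -1.20, including the clamp loader subunit Rfc5 (2.83-fold), the flap endonuclease Fen1 (3.00-fold), the ligase Lig1 (3.15-fold) and the origin licensing gene Cdc6 (3.01-fold). The summed CPM of the 38 mitosis genes divided by that of these 36 genes was 0.785, 0.794 and 0.829 in ICI replicates 1 to 3, against 0.552, 0.506 and 0.685 with isotype. The ratio was higher in every ICI library than in any isotype library. Isotype replicate 3, the highest of its group for the mitosis sum, was the lowest for the S phase sum (2256.4 CPM against 2426.5 and 2372.6 CPM).

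**Figure D4:**
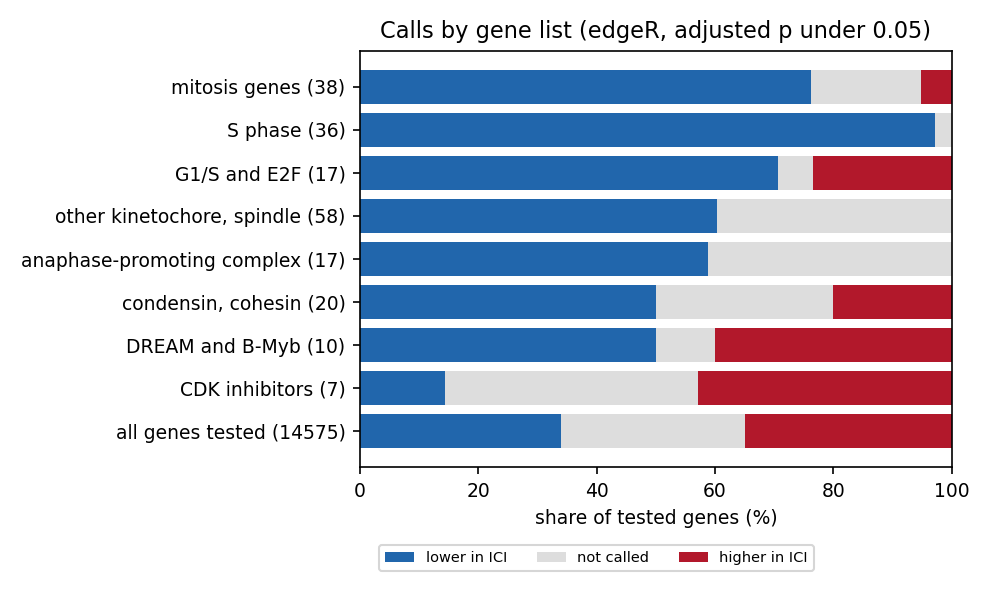
Share of the tested genes of each cell cycle list that were lower (blue), not called (grey) or higher (red) in the libraries labelled ICI, with the number tested in brackets and all 14575 genes in the lowest bar. Among these lists S phase genes have the largest blue share (97.2%), followed by the mitosis genes (76.3%), against 33.9% of all genes.

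Transcript length moved with the fold change over the whole table. The Spearman correlation of log2 fold change with the length of a gene's longest transcript was 0.23 across 14227 genes and 0.22 across the 38 members, given as descriptions, since genes of the same libraries are not independent. The 13 shortest members (1466 to 2405 bases) had a median log2 fold change of -1, the 13 of middle length (2489 to 3674 bases) one of -1.14 and the 12 longest (3892 to 11130 bases) one of -0.71, so the medians did not move steadily with length. After the trend over all genes was removed, the median of the members was -0.88, and 29 were lower and 2 higher. Cenpf moved from 0.04 to -0.36 on the log2 scale and stayed uncalled (edgeR adjusted p = 0.148).

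**Figure D5:**
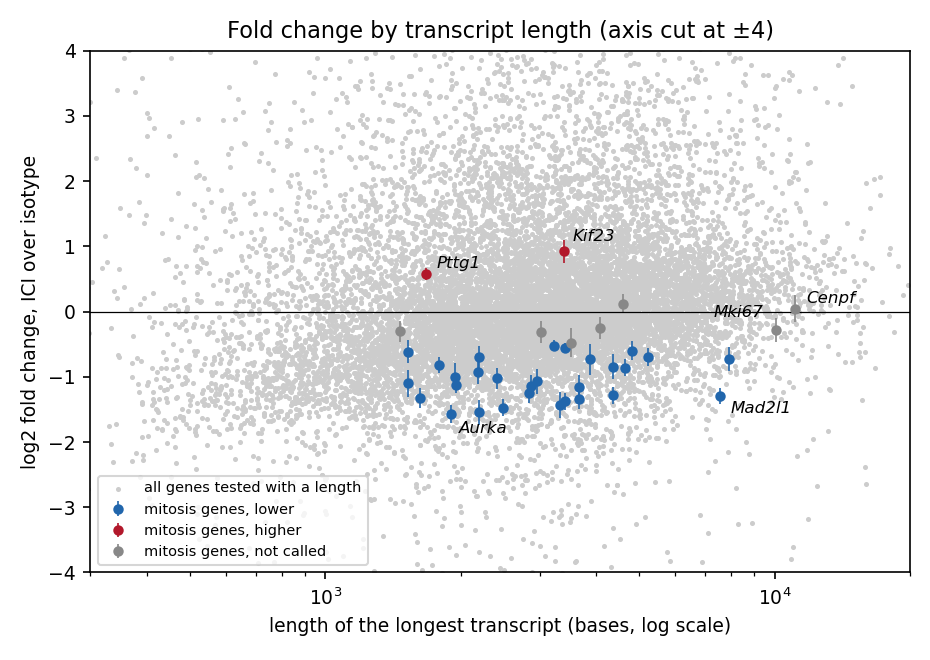
Log2 fold change (ICI over isotype, with standard errors for the members) against the length of the longest annotated transcript on a log axis, with all genes tested in grey. Members of every length lie below 0, while the longest, Cenpf and Mki67, lie near it.

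Because the members moved together, the stretch before their transcription starts was read for letters known from cell cycle promoters. RefSeq promoter windows (GRCm38.p6, an older build than the GRCm39 of the counts) were matched by symbol for 31 of the 38 genes, in 34 windows, and 250 bases before the start were searched on both strands. Those of Aurkb, Ccna2, Cdc25c, Incenp, Kif20a, Tpx2 and Foxm1 were not used here. The motifs were CCAAT, the box bound by NF-Y, TTTGAA, the cell cycle genes homology region (CHR), its variant TTCGAA, and the E2F site as TTTCCCGC, TTTCGCGC, TTTGCCGC or TTTGGCGC. No motif contains another. The 150 bases before the start are shown, 5′ to 3′, for 3 genes that fell, for Mki67, which was not called, and for the 2 that rose, with matches to any of these motifs, on either strand, in capitals.
Ccnb2 (chr9:70421555-70421704, minus strand): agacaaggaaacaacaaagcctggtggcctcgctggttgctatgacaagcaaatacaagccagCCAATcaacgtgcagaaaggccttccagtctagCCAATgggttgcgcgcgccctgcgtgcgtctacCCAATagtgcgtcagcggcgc
Cdk1 (chr10:69352913-69353062, minus strand): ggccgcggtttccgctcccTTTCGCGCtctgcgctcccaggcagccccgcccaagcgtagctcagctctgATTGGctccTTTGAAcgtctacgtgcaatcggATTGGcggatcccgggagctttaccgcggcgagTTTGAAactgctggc
Top2a (chr11:99024190-99024339, minus strand): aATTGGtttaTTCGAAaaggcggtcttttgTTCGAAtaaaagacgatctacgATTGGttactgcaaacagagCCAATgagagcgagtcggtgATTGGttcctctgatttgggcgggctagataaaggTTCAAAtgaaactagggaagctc
Mki67 (chr7:135716380-135716529, minus strand): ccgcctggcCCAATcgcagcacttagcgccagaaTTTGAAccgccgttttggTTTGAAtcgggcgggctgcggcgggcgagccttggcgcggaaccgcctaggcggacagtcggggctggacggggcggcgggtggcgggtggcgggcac
Kif23 (chr9:61946800-61946949, minus strand): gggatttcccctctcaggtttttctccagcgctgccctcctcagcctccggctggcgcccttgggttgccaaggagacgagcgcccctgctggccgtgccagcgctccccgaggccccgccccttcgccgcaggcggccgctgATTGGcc
Pttg1 (chr11:43425982-43426131, minus strand): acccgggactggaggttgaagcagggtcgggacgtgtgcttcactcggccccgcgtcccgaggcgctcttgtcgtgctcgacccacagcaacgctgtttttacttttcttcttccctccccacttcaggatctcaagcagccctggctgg

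CCAAT was found in 26 of the 34 windows (76.5%), where 33.8% of all 32851 windows hold it. TTTGAA was in 13 (38.2% against 16%), TTCGAA in 2 (5.88% against 1.34%) and an E2F site in 1 (2.94% against 1.86%). Some windows of the same gene overlap. By gene, CCAAT stood before 17 of 22 that fell, 5 of 7 that were not called and 1 of the 2 that rose, and TTTGAA before 8, 3 and 0 of them. In the stretches printed, Ccnb2 has 3 CCAAT matches, Cdk1 has 2 CCAAT matches beside 2 of TTTGAA and 1 E2F site, and Top2a has 4 CCAAT matches, 1 of TTTGAA and some of TTCGAA. Mki67, which was not called, holds 1 CCAAT match and 2 of TTTGAA. Kif23 has 1 CCAAT match close to its start and Pttg1 none of the motifs. These are matches of letters, not measured binding sites.

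The makeup of the RNA by cell type differed between the groups in the same libraries. All 8 markers of resident macrophages were called higher in the libraries labelled ICI, with a summed level of 8690.5 to 9960.2 CPM against 251.8 to 323.8 CPM. Of 7 monocyte markers 6 were called lower and 0 higher, at 793.5 to 1053.4 CPM against 4166.1 to 8760.0 CPM in sum. All 6 B cell markers were called higher, at 228.8 to 759.7 CPM against 11.7 to 22.4 CPM, with ICI replicate 3 highest, whereas the mitosis sum was highest in ICI replicate 2. The 11 T cell markers summed to 27.0 to 42.2 CPM against 6.23 to 8.17 CPM, and 4 of the 6 tested were called higher and 1 lower. Cd4 (14.3 against 0.621 CPM) and Lck (11.9 against 2.99 CPM) held most of the ICI sum. Cd247 (3.17 against 1.1 CPM) and Cd3g (0.919 against 0.256 CPM) were also called higher. Trac was called lower (0.282 against 0.57 CPM) and Cd3e was not called (0.504 against 0.363 CPM). Cd3d, Cd8a, Cd8b1, Cd5 and Thy1 were too low to be tested, so the sum does not stand for T cells as a whole. No marker of these 4 lists was at 0 in all libraries of a group. Counts of called markers stand beside the 35.0% higher and 33.9% lower of all genes tested. Summed markers were also higher in every ICI library for macrophages in general (12444.8 to 14235.1 against 8519.1 to 10394.4 CPM), of which 4 of 9 were called higher and 2 lower. For conventional dendritic cells the sums were 342.3 to 496.3 against 70.8 to 122.1 CPM, with 5 of 8 called higher and 2 lower. Sums were likewise higher for neutrophils (537.6 to 587.5 against 395.5 to 492.8 CPM, 4 of 8 tested called higher and 1 lower) and mast cells (32.5 to 87.1 against 13 to 26 CPM, 5 of 6 called higher). The same held for group 2 innate lymphoid cells (57.9 to 80.9 against 3.77 to 6.73 CPM), fibroblasts (61.3 to 194.5 against 10.6 to 14.4 CPM, 5 of 6 called higher), cardiomyocytes (30.9 to 41.4 against 4.66 to 11.6 CPM, 6 of 6 tested) and endothelial cells (25.9 to 40.2 against 18.5 to 25.7 CPM). Natural killer markers were lower in sum (114.7 to 172.1 against 224.2 to 229.8 CPM) although 6 of the 8 were called higher and 1 lower. The gene called lower, Klrk1, was at 35.5 ± 8.19 against 183.6 ± 6.36 CPM and held most of the isotype sum. Called higher were Ncr1, Klrb1c, Eomes, Gzma, Prf1 and Klre1. Plasma cell markers were lower in sum too (329.2 to 352 against 377.7 to 416 CPM), although 2 of the 6 were called higher and 2 lower. Those called lower, Xbp1 (264.3 against 286.3 CPM) and Prdm1 (51.9 against 98.8 CPM), held most of both sums. Those called higher were Mzb1 and Tnfrsf17. Listed at 0 in all isotype libraries were Tnfrsf17, a plasma cell marker, and Il5 and Il13 of group 2 innate lymphoid cells. Mitochondrial genes held 0.783% ± 0.0784 of counts in the libraries labelled ICI and 0.446% ± 0.0291 with isotype, and 21470.3 ± 112.8 against 20120 ± 962.5 genes were detected, both higher in every ICI library (p = 0.1 each in an exact two-sided permutation test). Which of these cells carried the mitosis transcripts, and the part that the makeup or these library measures had in their fall, were not tested.

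Some reads cannot be assigned to 1 gene with certainty. The libraries carry no strand, and in the GENCODE M21 annotation exons of Ccna2 overlap Exosc9 on the opposite strand by 378 bases, those of Kif20a overlap Cdc23 by 1271 bases, Prc1 overlaps Rccd1 by 670, Nusap1 overlaps Oip5 by 172 and Cdc20 overlaps Elovl1 by 53. Of these partners, Exosc9, Elovl1 and Oip5 were called lower, with log2 fold changes of -0.93, -0.80 and -0.96, as were Ccna2 and Cdc20, while Cdc23 (0.17) and Rccd1 (0.19) were not called. How many reads such pairs share was not tested. The pseudogenes Ccnb1-ps and Ccnb2-ps had 16 and 30 counts over all libraries, against 6186 and 4939 for Ccnb1 and Ccnb2.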

How the data were processed

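RNA of CD45-positive, CD90.2-negative heart cells was sequenced from 3 libraries labelled ICI and 3 labelled isotype. Per the labels' protocols, non-directional libraries were made with a SMART-seq V4 kit and read in pairs. The authors deposited raw counts per Ensembl gene, without normalization. STAR 2.7.10a, Salmon 1.10.1 and the build GRCm39 appear in the submitters' processing notes, with their roles, the annotation, the strand setting and any rounding not given in the sources used here. Columns were tied to samples by library name. Symbols matched 91.3% of identifiers. Unused columns of values numbered 0.

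Counts were tested with edgeR 4.0.16 (R 4.3.3, TMM factors, filterByExpr with minimum count 10, robust quasi-likelihood F test), which kept 14575 genes with 99.9% of counts, and was tested on simulated data. SE came from fold change and F. Alternatives were DESeq2 1.42.0, limma-voom (limma 3.58.1), 3 other scalings, no filter, a strict filter (50 counts in 3 libraries), a replicate block, libraries left out, a length trend removed (lowess span 0.3), a 1.5-fold test and, added after the data were seen, the legacy fit. Transcript lengths came from GENCODE M21 and exceed some transcripts in use. Chi-square per degree of freedom between replicates was 12.8 to 35.3, so replicates differed beyond sampling noise. The members, lists and rules were chosen with earlier results of these data known. Values by library are given for the 3 genes of each role with the smallest p, for Mki67, Top2a and Foxm1 and for members not called, and up to 4 genes with the smallest p are named from each other list. Depth and replicate number (3 per group) limit precision, and reads copied by PCR, with no molecular identifiers, are not separate molecules.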

Additional observations from a re-analysis of the deposited data

How the results depend on the processing

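The direction of the median member held in all 18 other settings, with medians of -1.02 to -0.65. The count of lower members, 29 in the main fit, was 20 against a 1.5-fold change and 27 to 33 in the other settings. Of 684 member results under the 18 settings, 651 kept direction and side of the threshold, 20 lost the call, 7 gained it and 6 changed sign. Direction and side of the threshold were kept throughout by 21 of the 38 genes. The sign changes were those of uncalled genes, Cenpf (log2 fold change -0.36 with the length trend removed, -0.03 without ICI replicate 2, -0.09 without isotype replicate 1 and -0.10 without isotype replicate 2, with -0.10 to 0.35 over all settings that leave libraries out) and Anln (-0.04 with the length trend removed and -0.05 without ICI replicate 2, with -0.05 to 0.28 over those settings); the cause was not tested. Against a 1.5-fold change, a stricter test by construction, 1 member remained higher, the lower and higher counts of all genes were 2410 and 3110, and the other cell cycle and mitosis lists together had 61 lower and 4 higher genes in place of 108 and 15. With upper-quartile factors and library totals alone the higher count of these lists was 24 and 25. Leaving out 1 library at a time gave 28 to 33 lower members and 2 higher. With the replicate number as a block, 29 members were lower and 2 higher. Same-numbered libraries deviated from their group means with correlations of 0.035, 0.061 and 0.125 across genes, so the numbers were not taken to pair the libraries. Not every library correlated best with its own number, although both replicates 3 share the Xist signal and that of ICI correlated best with that of isotype. The block changed no member's call. With 3 libraries a group, a library left out leaves 2, and at this depth Cdc25c, the member with the fewest counts, had at least 50 in each library.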

Other observations

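Inhibitors of the cyclin-dependent kinases went in both directions. Of 8 such genes 7 were tested, and 3 were called higher in the libraries labelled ICI, 1 lower and 3 not called by edgeR, where 35.0% of all genes tested were higher and 33.9% lower. With upper-quartile factors or library totals 5 were higher. Cdkn1c, which encodes p57, was at 10, 8.14 and 8.22 CPM against 0.474, 0.689 and 0.781 CPM (11.7-fold higher, edgeR adjusted p = 1.06e-06). Cdkn2b, p15, rose 10.7-fold by the edgeR fit (SE 0.449 on the log2 scale), at 1.65 ± 0.179 CPM against 0.137 ± 0.105 CPM. Its isotype libraries held only 4, 6 and 1 counts, so the size of that rise is uncertain. Cdkn2d, p19, rose 1.55-fold, while Cdkn3, a phosphatase that is itself expressed in dividing cells, fell 2.33-fold.

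Chromosome structure genes and the regulators of the DREAM and B-Myb complexes also went both ways, with shares to be read beside the same 33.9% lower and 35.0% higher of all genes. Of 20 condensin and cohesin genes 10 were lower and 4 higher, with the condensin II gene Ncapg2 2.24-fold and Ncaph2 1.45-fold lower, sororin, Cdca5, 2.48-fold lower and the cohesin subunit Stag2 1.43-fold higher. Of 10 tested DREAM and B-Myb genes 5 were lower and 4 higher. Mybl2, the B-Myb gene that acts with MuvB on G2 and M genes, fell 3.88-fold by the edgeR fit (edgeR adjusted p = 2.47e-05). Its levels were 6.83 ± 1.91 CPM against 23.1 ± 2.99 CPM. E2f4 and Tfdp1 fell 2.16-fold and 1.89-fold, and E2f5 rose 2.29-fold.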
